A study of Mus musculus with 4 samples.

Results

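Immediate early genes were compared between FACS-isolated Lgr5+ and Lgr6+ progenitors of the neonatal mouse cochlea. The members were the 10 genes *Fos*, *Fosb*, *Fosl2*, *Jun*, *Junb*, *Jund*, *Egr1*, *Ier2*, *Atf3* and *Dusp1*, found by their symbols among the 23997 genes of the deposited table. Lgr5+ progenitors were EGFP+ cells from Lgr5-EGFP-IRES-creERT2 mice and Lgr6+ progenitors were EGFP+ cells from Lgr6-EGFP-IRES-CreERT2 mice, both of the C57BL/6 strain per the labels and both taken at postnatal day 3 per the study's methods. In each line the reporter marks cells by the activity of the tagged receptor gene, and the cochleae were digested with trypsin, triturated and sorted before the RNA was extracted. Each population has 2 libraries in the labels, but 3 fractions of a shared RNA extraction in the study's methods, so the libraries may not be separate biological replicates. The table gives a gene 1 FPKM per population, with the libraries already combined. Therefore no spread between libraries could be given, no test was made, and a difference was counted when the values were at least 1.5-fold apart.

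Immediate early genes are transcribed within minutes of a stimulus without the need for new protein. Growth factors, calcium entry and the mechanical or enzymatic handling of tissue are all known to induce them. *Fos*, *Fosb* and *Fosl2* encode Fos family proteins, which must pair with a Jun family protein to bind DNA as the AP-1 factor, while *Jun*, *Junb* and *Jund* encode the Jun partners. *Egr1* encodes a zinc finger transcription factor, *Ier2* a small nuclear regulator and *Atf3* a stress-induced ATF/CREB factor, and *Dusp1* encodes the phosphatase that switches off MAP kinases. No intact or unsorted cochlea was analysed here, so the part of these levels that arose during isolation was not tested.

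The FPKM values had a sum over all genes of 754163 in Lgr5+ and 627932 in Lgr6+ progenitors. The steps on which the low FPKM values fall gave a depth of the combined values 3.20 times as large in Lgr6+ as in Lgr5+ progenitors. *Lgr5*, the receptor gene that defines the Lgr5+ sort, had an FPKM of 9.65 in Lgr5+ and 25.0 in Lgr6+ progenitors, and *Lgr6* had 2.06 and 2.90. The study describes Lgr6+ cells as a subset of the Lgr5+ progenitors, so *Lgr5* can be present in both sorts. Its FPKM did not separate the populations in the direction of the labels. Supporting cell markers were present in both populations, with a summed FPKM of 4581 and 4882 over 15 genes, and were led by *S100a1* in both, then by *Hes5* in Lgr5+ and *Npy* in Lgr6+ progenitors. Hair cell markers summed to 914 and 1216 over 11 listed genes, and the defining genes *Pou4f3*, *Atoh1* and *Myo7a* were above 0 in both populations. Of these 11 genes, 8 passed 1.5-fold toward Lgr6+ progenitors, beside 28.5% of all genes with an FPKM of 1 or more in either population. Macrophage markers summed to 4.82 in Lgr5+ and 275 in Lgr6+ progenitors, and 6 of the 12 were listed at 0 in Lgr5+ progenitors, among them *C1qb*, *C1qc*, *Tyrobp* and *Csf1r*. Endothelial markers summed to 13.4 and 83.5 and melanocyte markers to 7.75 and 19.2. Mesenchyme and fibrocyte markers summed to 348 and 901, but to 338 and 375 without *Otos* and *Igfbp7*. Glial markers summed to 97.03 and 231, and to 34.6 and 212 without *Egr2*, which is itself an immediate early gene. Neuronal markers summed to 348 and 248, and the direction turned to 115 and 131 without *Isl1*. These genes were left out after their values were seen. Red blood cell markers had the higher sum in Lgr5+ progenitors, at 629.8 against 108. The share of these cells in the levels of the immediate early genes was not tested, and in such bulk RNA fewer cells of a type and less RNA per cell cannot be told apart.

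Of the 10 immediate early genes, 8 had the higher FPKM in Lgr5+ progenitors and 2, *Jund* and *Atf3*, had the higher FPKM in Lgr6+ progenitors. *Fos*, *Fosb*, *Fosl2*, *Junb* and *Egr1* passed the 1.5-fold threshold toward Lgr5+ progenitors, and none of the 10 passed it toward Lgr6+ progenitors. All 10 cleared the filter on low values, which asked for an FPKM of 1 or more in either population. Over the 13436 genes that did so, 23.3% passed the threshold toward Lgr5+ and 28.5% toward Lgr6+ progenitors. The log2 change, which is log2(FPKM + 1) in Lgr6+ minus that in Lgr5+ progenitors and understates the change of low genes, had a median of -0.55 over the 10 genes and 0.03 over all kept genes. The 10 genes together held 0.275% of all FPKM in Lgr5+ and 0.223% in Lgr6+ progenitors. Nearest to the threshold of 1.5-fold were *Junb* inside it, with a log2 change of -0.65, and *Ier2* outside it, with -0.45. When each population was scaled to the same sum of FPKM, *Fos*, *Junb* and *Egr1* came under the threshold, and 2 of the 10 genes, *Fosb* and *Fosl2*, still passed it, where 17% of all kept genes passed toward Lgr5+ and 37.8% toward Lgr6+ progenitors.

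**Figure D1:**
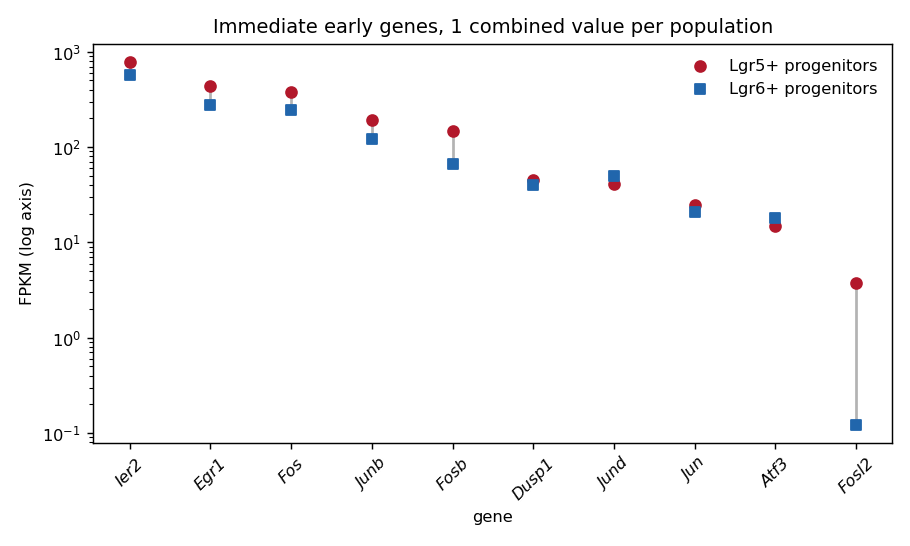
FPKM of the 10 genes on a log axis, ordered by the Lgr5+ value, with circles for Lgr5+ and squares for Lgr6+ progenitors, each a single combined value without an error. *Ier2* was highest at 778 and 568 and *Fosl2* lowest at 3.70 and 0.121, and the square lies above the circle for *Jund* and *Atf3*.

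The order of the 10 genes by FPKM, a level per transcript length, was nearly the same in both populations. It ran *Ier2*, *Egr1*, *Fos*, *Junb* and *Fosb* from the top in both, and *Jun*, *Atf3* and *Fosl2* at the bottom, and differed in that *Dusp1* stood above *Jund* in Lgr5+ and below it in Lgr6+ progenitors. Since the spread between libraries is not known, it cannot be said which neighbours in this order differ beyond it. *Ier2* ranked 176 among all listed genes in Lgr5+ and 202 in Lgr6+ progenitors. *Egr1* ranked 300 and 375, and *Fos* ranked 338 and 421. *Ier2*, *Egr1*, *Fos* and *Junb*, 4 of the 10 genes, lay above the 90th percentile of kept genes in both populations. *Jun*, *Junb*, *Jund* and *Ier2* have 1 exon in their longest GENCODE M1 transcript, *Egr1* has 2 and the other genes have 4. None of the 10 loci overlapped another gene of the table.

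Transcription of immediate early genes is known to be induced through sites close to the start that bind serum response factor or CREB, so the promoters of the members were read. RefSeq promoters of build GRCm38.p6 matched 8 of the 10 genes, all but *Egr1* and *Ier2*. The 250 bases before the transcription start were searched on both strands for the CArG box that serum response factor binds, for the cAMP response element TGACGTCA, for its core TGACG, for the AP-1 element TGANTCA and for TATAAA, and a full TGACGTCA also holds the core on each strand. The core was found in *Fos*, *Fosb*, *Junb*, *Atf3* and *Dusp1*, which is 5 of 8 promoters, and in 17.8% of all 32851 promoters of the same length. The core holds a CG pair, and these 5 promoters had 58.4% to 68.8% GC, against a median of 52.4% over all promoters. The share of 17.8% is not matched for GC. *Dusp1* held the full element, present in 1.55% of all promoters, and *Fos* held TATAAA, present in 12.4%. Within these 250 bases the CArG box was in none of the 8 and in 1.47% of all promoters, and TGANTCA was in none of the 8 and in 6.75%. A site farther from the start would not have been found, and *Egr1* and *Ier2* were not searched. No core was found before *Fosl2*, which was counted as higher in Lgr5+ progenitors, or before *Jun* and *Jund*, which were not. The core stood before *Fos*, *Fosb* and *Junb*, which were counted as higher in Lgr5+ progenitors, and also before *Atf3* and *Dusp1*, which were not. The promoters of the former 3 genes and of *Dusp1* are shown 5′ to 3′ with these matches in capitals, at chr12:85473640-85473889 on the plus strand for *Fos*, and on the minus strand at chr7:19310046-19310295 for *Fosb*, chr8:84978749-84978998 for *Junb* and chr17:26508473-26508722 for *Dusp1*.
Fos: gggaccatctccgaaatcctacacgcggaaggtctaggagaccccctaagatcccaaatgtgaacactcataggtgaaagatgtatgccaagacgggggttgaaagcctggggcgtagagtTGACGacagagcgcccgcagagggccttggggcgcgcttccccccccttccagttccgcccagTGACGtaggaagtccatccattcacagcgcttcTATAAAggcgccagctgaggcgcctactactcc
Fosb: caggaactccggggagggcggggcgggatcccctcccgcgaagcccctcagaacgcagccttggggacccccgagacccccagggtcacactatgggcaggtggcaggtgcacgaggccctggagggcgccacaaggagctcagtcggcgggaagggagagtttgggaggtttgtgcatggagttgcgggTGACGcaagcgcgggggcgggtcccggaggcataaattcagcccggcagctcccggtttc
Junb: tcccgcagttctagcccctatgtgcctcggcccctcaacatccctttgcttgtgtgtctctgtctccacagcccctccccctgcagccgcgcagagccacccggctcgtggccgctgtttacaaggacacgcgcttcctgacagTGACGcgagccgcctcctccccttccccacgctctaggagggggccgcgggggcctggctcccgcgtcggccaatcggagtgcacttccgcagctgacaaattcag
Dusp1: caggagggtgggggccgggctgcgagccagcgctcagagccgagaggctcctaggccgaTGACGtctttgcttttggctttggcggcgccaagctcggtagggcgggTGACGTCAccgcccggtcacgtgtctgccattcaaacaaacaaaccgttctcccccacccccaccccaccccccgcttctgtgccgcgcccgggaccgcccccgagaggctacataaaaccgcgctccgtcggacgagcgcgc
In *Fos* the matches lie 129 and 66 bases before the start for the core and 33 bases before it for TATAAA. In *Fosb* and *Junb* the core begins 60 and 106 bases before the start, and in *Dusp1* the full element begins 143 bases before it, with a further core at 191.

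The Fos family was higher in Lgr5+ progenitors for each of its 3 members. *Fos* (chromosome 12, 85473901 to 85477270, GRCm38) had an FPKM of 383 in Lgr5+ and 242 in Lgr6+ progenitors, 1.58 times as high in Lgr5+, with a log2 change of -0.66. *Fosb* (chromosome 7, 19302696 to 19310045) had 146 and 66.4, a ratio of 2.19 and a log2 change of -1.12. Of all kept genes, 20.9% had a more negative log2 change than *Fos*, and 9.30% had a more negative log2 change than *Fosb*. *Fosl2*, which encodes Fra-2, lies on chromosome 5 (32136472 to 32157839), with an FPKM of 3.70 in Lgr5+ and 0.121 in Lgr6+ progenitors. This log2 change, -2.07, rests on low values and moved to -4.10 with a pseudocount of 0.1. In the units of the smallest steps of the low values, these levels of *Fosl2* stand for 163 steps in Lgr5+ and 17.0 in Lgr6+ progenitors, so by these steps the lower value came from the more deeply sequenced population. *Fosl1*, the remaining Fos gene, was under the filter, with 0.77 and 0.06.

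Within the family the composition can be read without any scaling between the populations. *Fos* made up 71.9% of the summed Fos family FPKM in Lgr5+ and 78.4% in Lgr6+ progenitors, *Fosb* made up 27.4% and 21.5%, and *Fosl2* made up 0.696% and 0.0393%. The ratio of *Fos* to *Fosb* was 2.63 in Lgr5+ and 3.65 in Lgr6+ progenitors. *Fosb* was thus the abundant Fos gene that differed most.

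The Jun family differed among its members. *Junb* (chromosome 8, 84976909 to 84978748) was the most abundant and had an FPKM of 194 in Lgr5+ and 123 in Lgr6+ progenitors, a ratio of 1.58 and a log2 change of -0.65. *Jun* (chromosome 4, 95049036 to 95052222) had 24.5 and 20.9, with a log2 change of -0.22. *Jund* (chromosome 8, 70697739 to 70700616) is known as the Jun gene that is expressed steadily rather than induced, and it had 40.7 in Lgr5+ and 50.1 in Lgr6+ progenitors, with a log2 change of 0.29. *Jun* and *Jund* were under 1.5-fold, and the sign of *Jun* turned to 0.03 when the populations were scaled to the same sum. *Junb* therefore made up 74.8% of the summed Jun family FPKM in Lgr5+ and 63.4% in Lgr6+ progenitors, while *Jund* made up 15.7% and 25.8% and *Jun* 9.47% and 10.8%. The ratio of *Junb* to *Jund* was 4.75 in Lgr5+ and 2.45 in Lgr6+ progenitors. Over both families, the summed Fos FPKM was 2.05 times the summed Jun FPKM in Lgr5+ and 1.59 times in Lgr6+ progenitors.

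**Figure D2:**
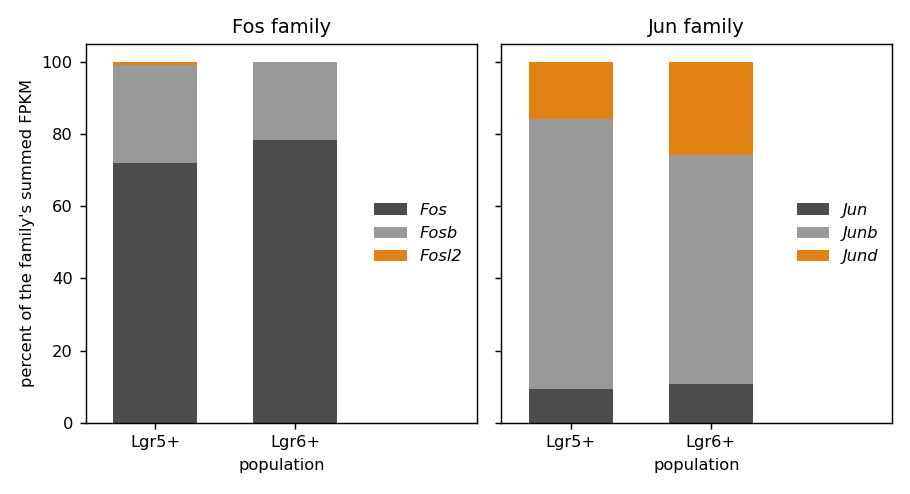
Stacked bars give each gene's percent of the summed FPKM of its family in Lgr5+ and Lgr6+ progenitors, Fos family left and Jun family right. The *Jund* part is 15.7% in Lgr5+ and 25.8% in Lgr6+ progenitors, and the *Fosl2* part is 0.696% in Lgr5+ and too thin to be seen in Lgr6+ progenitors.

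*Egr1* (chromosome 18, 34861207 to 34864956) had an FPKM of 442 in Lgr5+ and 275 in Lgr6+ progenitors, a ratio of 1.61 and a log2 change of -0.68. *Ier2* (chromosome 8, 84661331 to 84662852) had the highest FPKM of the 10 genes and also the largest difference in FPKM, with 778 in Lgr5+ and 568 in Lgr6+ progenitors, but its ratio of 1.37 stayed under the threshold. *Atf3* (chromosome 1, 191170297 to 191183333) had 14.9 and 17.8, a log2 change of 0.24. *Dusp1* (chromosome 17, 26505591 to 26508472) had 44.7 and 39.8, a log2 change of -0.17 that turned to 0.09 when the populations were scaled to the same sum. The ratio of *Egr1* to *Dusp1*, an induced factor and the phosphatase of the feedback on its inducing kinases, was 9.88 in Lgr5+ and 6.90 in Lgr6+ progenitors.

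The genes that were counted were mostly those with high FPKM, and the level of a gene moved with the log2 change over all genes as well. Among kept genes with a mean FPKM of 100 or more, the median log2 change was -0.26, and 29.1% passed the threshold toward Lgr5+ and 7.84% toward Lgr6+ progenitors. The 5 members at this level, *Ier2*, *Egr1*, *Fos*, *Junb* and *Fosb*, had a median of -0.66, and 4 of them were counted as higher in Lgr5+ progenitors. Among kept genes with a mean FPKM of 10 to 100 the median was -0.05, with 23.2% past the threshold toward Lgr5+ and 20.7% toward Lgr6+ progenitors. None of the 4 members at this level, *Dusp1*, *Jund*, *Jun* and *Atf3*, was counted, and their median was 0.04. *Fosl2* was the only member with a mean FPKM under 10, a level at which 22.6% of genes passed toward Lgr5+ and 38.2% toward Lgr6+ progenitors. These level classes were set after the values were seen.

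**Figure D3:**
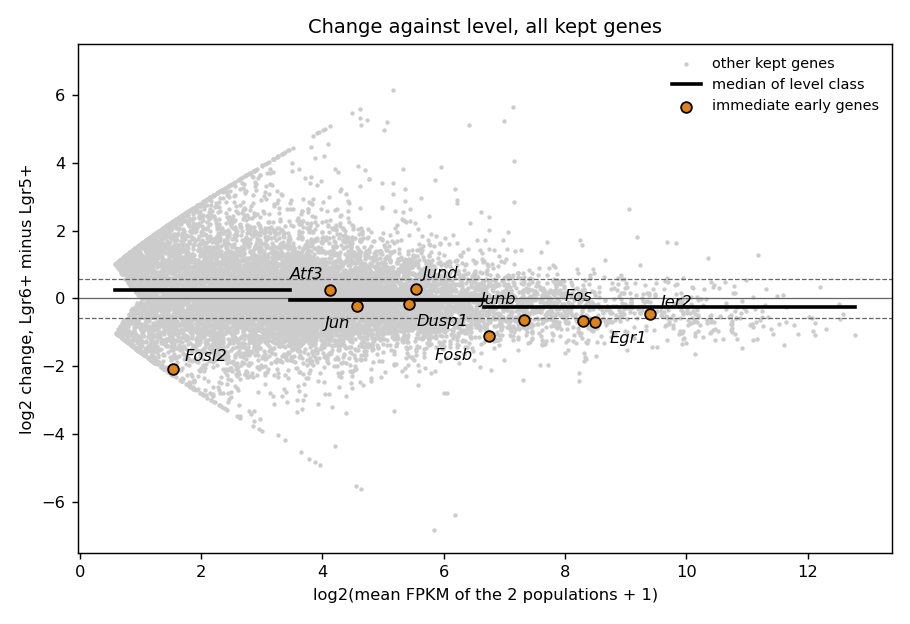
Log2 change of each kept gene (grey) against log2(mean FPKM + 1), with the 10 immediate early genes in orange, dashed lines at 1.5-fold and black bars at the median of each level class. The black bars step down from 0.25 through -0.05 to -0.26 as the level increases, and *Fos*, *Fosb*, *Fosl2*, *Junb* and *Egr1* lie below the lower dashed line.

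The scaling between the populations moved the values of all members, since all FPKM in Lgr6+ progenitors summed to 83.3% of the total in Lgr5+ progenitors. Scaled to the same sum, the median log2 change was 0.28 over all kept genes and -0.29 over the 10 genes. After quantile normalization, which gives both populations the same distribution, the median was -0.02 over all kept genes and -0.29 over the 10 genes, and 2 members were counted, where 25.7% of all kept genes passed toward Lgr5+ and 24.4% toward Lgr6+ progenitors. *Fos* ranged from -0.69 to -0.38 over the settings tried, *Egr1* from -0.72 to -0.37, *Junb* from -0.69 to -0.39 and *Fosb* from -1.16 to -0.86. These 4 genes, *Fosl2* and *Ier2* had a negative log2 change under each setting that gave a value, and *Jund* and *Atf3* a positive one.

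**Figure D4:**
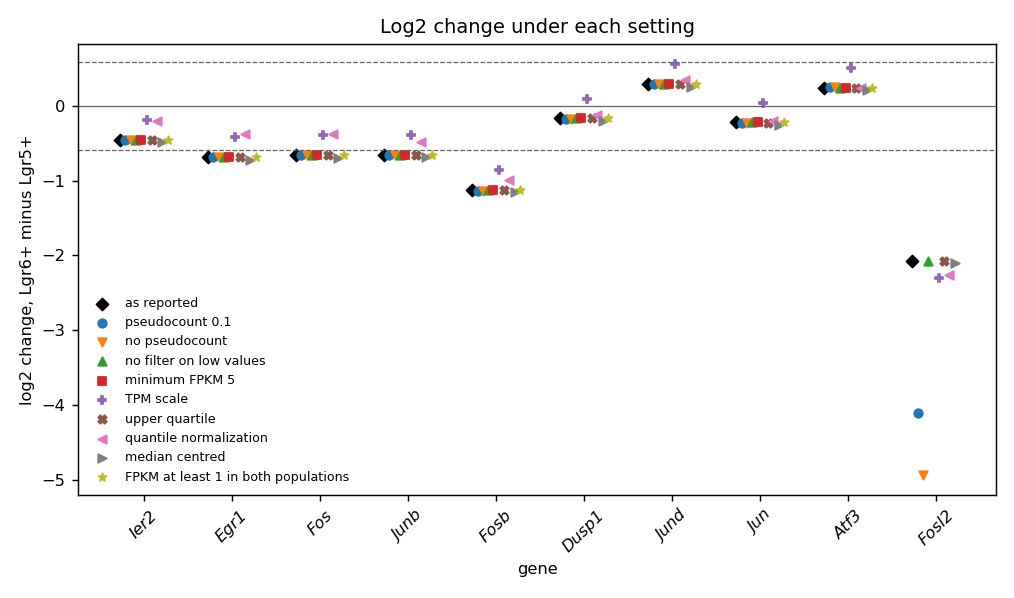
Log2 change of each of the 10 genes under each processing setting, with dashed lines at 1.5-fold, where black diamonds are the values given in the text and the other symbols the alternatives. Scaling to the same sum (TPM scale) and quantile normalization bring *Fos*, *Egr1* and *Junb* inside the dashed lines, whereas *Fosb* and *Fosl2* stay outside.

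Other immediate early genes were taken from lists that did not hold the 10 members. Of 24 kept transcription regulators, 8 passed 1.5-fold toward Lgr5+ and 7 toward Lgr6+ progenitors, with a median log2 change of -0.21. The shares of all kept genes were 23.3% and 28.5%. *Srf*, which encodes serum response factor, had an FPKM of 27.6 in Lgr5+ and 7.26 in Lgr6+ progenitors. *Egr2* had 62.5 and 19.7, and *Egr4* had 16.4 and 6.06. In the other direction, *Klf5*, a Krüppel-like factor, had 0.642 in Lgr5+ and 21.9 in Lgr6+ progenitors, and *Ier5* had 2.84 and 10.9. *Nr4a1*, an inducible orphan nuclear receptor that was chosen after its values were seen, had 221 and 104. With a minimum FPKM of 5 in either population, the count toward Lgr5+ progenitors stayed at 8 and the 7 toward Lgr6+ became 2. At that minimum, 24.1% of all kept genes passed in each direction.

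Of 28 kept effectors and feedback genes, 12 passed 1.5-fold toward Lgr5+ and 6 toward Lgr6+ progenitors, with a median of -0.39. The counts became 6 and 7 when the populations were scaled to the same sum, where 17% and 37.8% of all kept genes passed. *Cyr61* and *Ctgf*, which encode matricellular proteins of the CCN family, had an FPKM of 502 and 93.7 in Lgr5+ and of 144 and 20.7 in Lgr6+ progenitors. *Arc*, a neuronal activity gene, had 13.7 and 6.01. *Zfp36*, which encodes an mRNA decay factor, was in the other direction with 20.7 and 41.8, as were *Homer1* with 3.24 and 11.5 and *Gadd45a*, a growth arrest gene, with 9.56 and 18.3. Over these 2 lists, 38.5% of 52 kept genes were higher in Lgr5+ progenitors, against 23.3% of all kept genes, and 25% were higher in Lgr6+ progenitors, against 28.5%. These shares stand for 20 and 13 genes. On scaling to the same sum they became 12 and 14 of 52, beside 17% and 37.8% of all kept genes. With a minimum FPKM of 5 they were 20 and 6 of 44, beside 24.1% of all kept genes in each direction. The lists were thus mixed and held genes past the threshold in both directions. They were not matched to the 10 members in number or level, so no contrast with the members is drawn.

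Among 14 other kept AP-1, ATF and Maf subunits, 6 passed 1.5-fold toward Lgr5+ and 4 toward Lgr6+ progenitors, with a median log2 change of -0.07. Of all kept genes, 23.3% passed toward Lgr5+ and 28.5% toward Lgr6+ progenitors. *Atf4*, the translationally controlled factor of the integrated stress response, had an FPKM of 554 in Lgr5+ and 169 in Lgr6+ progenitors, 3.27 times as high in Lgr5+. *Atf5* had 15.7 and 4.92, and *Atf1* had 10.2 and 5.73. *Maf*, a large Maf protein gene, had 0.581 in Lgr5+ and 10.3 in Lgr6+ progenitors, *Atf2* had 8.69 and 18.4, and *Mafk* had 6.82 and 13.5. *Batf* and *Batf2* were listed at 0 in both populations.

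The other dual specificity phosphatases, which act on MAP kinases as *Dusp1* does, had 5 of 10 kept genes at least 1.5-fold higher in Lgr5+ and 2 in Lgr6+ progenitors, with a median of -0.70. The shares of all kept genes were 23.3% and 28.5%. *Dusp6*, the cytoplasmic ERK phosphatase, had an FPKM of 34.7 in Lgr5+ and 15.2 in Lgr6+ progenitors, and *Dusp16*, a JNK phosphatase, had 15.7 and 3.78. *Dusp14* had 15.2 and 47.4. With a minimum FPKM of 5, which fewer of these genes reached, the counts were 3 and 1, beside 24.1% of all kept genes in each direction.

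Upstream of the immediate early genes, 7 of 25 kept kinases and factors passed 1.5-fold toward Lgr5+ and 4 toward Lgr6+ progenitors, beside 23.3% and 28.5% of all kept genes. The median of 0.06 was near that of all kept genes. The counts of 7 and 4 became 5 and 8 when the populations were scaled to the same sum, beside 17% and 37.8% of all kept genes. *Mapk13*, a p38 kinase, had an FPKM of 108 in Lgr5+ and 40.97 in Lgr6+ progenitors, *Map2k7*, a kinase of JNK, had 27.5 and 12.9, and *Mapk14*, the p38α gene, had 18.4 and 10.99. *Map2k3*, a kinase of p38, had 9.17 and 19.5, *Mapk12* had 15.4 and 25.4, and *Araf* had 45.95 and 71.6.

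**Figure D5:**
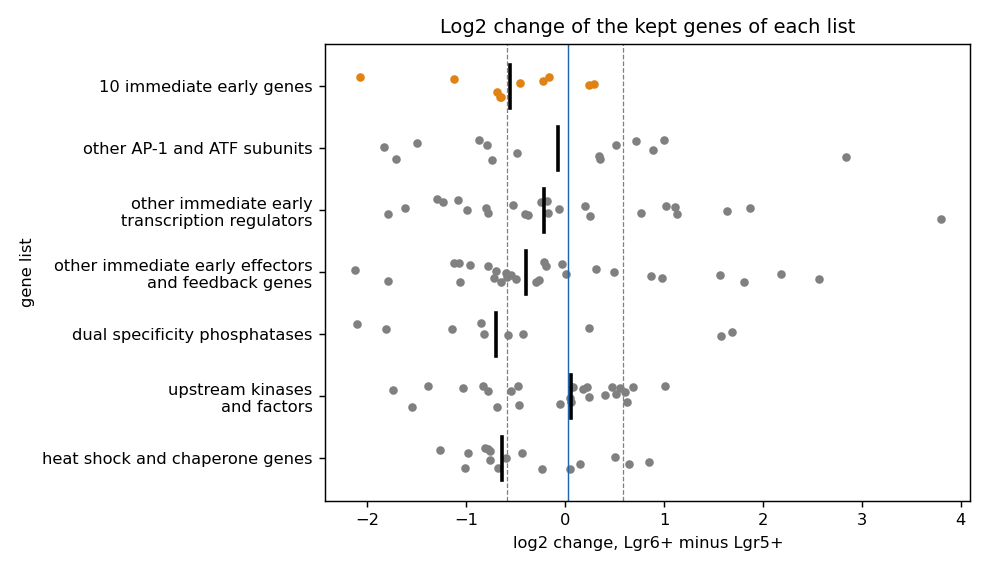
Each point is the log2 change of a kept gene, with the 10 immediate early genes in orange and the other lists in grey. Black bars give list medians, the blue line the median of all kept genes at 0.03 and the dashed lines 1.5-fold. The orange points reach 0.29 on the right, and points of the other immediate early lists run past 2. These lists are not matched to the 10 genes in number or level, so no contrast is drawn.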

How the data were processed

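RNA-Seq of sorted Lgr5+ and Lgr6+ progenitors was analysed from 1 deposited table. Per the study's methods, cDNA came from the SMART-Seq v4 low-input kit, and reads passed through Trimmomatic and TopHat before the authors derived FPKM with Cufflinks, versions of which are not given in the sources used here. The methods name mm9 and the submitters' processing notes mm10, while 99.1% of 19655 loci overlapped the gene in GRCm38.p6 and 12.8% in NCBIM37. Table starts count from 0 and are printed 1-based.

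The table also holds the authors' log2 fold change, p-value and q-value, which were not used. Without counts, library depth is unknown. Depth steps were read from FPKM times transcript length less 200 bases for 7990 genes with 1 GENCODE M1 transcript. Of these, 63 lay at the step in Lgr5+ and only 25 in Lgr6+ progenitors, and the depth ratio was not checked against the paper's reads. Whether a step is 1 fragment is not known, and the FPKM of each population carries no error.

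Genes reaching an FPKM of 1 in either population were kept, and the log2 change was taken on log2(FPKM + 1). The limma fit planned for values per sample could not be made. The members and lists were chosen with earlier results of these data known. The text names the members, up to 3 genes per direction of each list past 1.5-fold with an FPKM of at least 10, and markers. Python 3.11.15, numpy 2.4.6 and pandas 2.3.3 were used, and the counting was tested on simulated data.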

Additional observations from a re-analysis of the deposited data

How the results depend on the processing

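The count of 5 members at least 1.5-fold higher in Lgr5+ progenitors became 2 after scaling to the same sum of FPKM, after quantile normalization and with a 2-fold threshold, where 17%, 25.7% and 11.7% of all kept genes passed toward Lgr5+ progenitors. It was 4 or 5 with the other pseudocounts, filters and scalings, and also with *Fosl2* left out or when both populations had to reach an FPKM of 1, which were chosen after seeing the data. No member was higher in Lgr6+ progenitors past the threshold under any setting tried. *Jund* came nearest to it, with a log2 change of 0.55 on scaling to the same sum, where *Atf3* had 0.50. The median log2 change of the members ran from -0.59 to -0.29. Over all kept genes, 3136 were higher in Lgr5+ and 3826 in Lgr6+ progenitors. These were 2283 and 5084 after scaling to the same sum, and 3450 and 3285 after quantile normalization, so the balance turned. With a 2-fold threshold these were 1575 and 2443. They were nearly equal, at 2414 and 2415, with a minimum FPKM of 5, and 2516 and 2392 when both populations had to reach an FPKM of 1. The cause was not tested. The medians of the other lists moved by less than 1.5-fold, but signs turned. The median of the other AP-1, ATF and Maf subunits, -0.07, became 0.34 at a minimum FPKM of 5, 0.17 on scaling to the same sum and -0.49 when both populations had to reach an FPKM of 1. That of the upstream kinases and factors, 0.06, became -0.03 after quantile normalization. No paired analysis was possible because the table holds 1 combined value per population, and leaving out each replicate in turn was not run for the same reason.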

Other observations

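Chaperone genes are known to be induced by heat and by protein damage. Of 16 that were kept, 9 passed the 1.5-fold threshold toward Lgr5+ and 2 toward Lgr6+ progenitors, with a median log2 change of -0.64, where 23.3% and 28.5% of all kept genes did so. When the populations were scaled to the same sum, these counts became 3 and 3, beside 17% and 37.8% of all kept genes. *Hsp90ab1* had an FPKM of 1301 in Lgr5+ and 661 in Lgr6+ progenitors, *Bag3*, a co-chaperone, had 11.8 and 4.33, and *Dnajb1* had 29.2 and 16.2. *Hsph1* was in the other direction, with 12.0 and 22.3.

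The inducible genes *Hspa1a* and *Hspa1b* of the list had low FPKM in both populations. *Hspa1a* had an FPKM of 0.0835 in Lgr5+ and 0.648 in Lgr6+ progenitors and *Hspa1b* had 0.896 and 0.321. Both were under the filter, and since they are near-identical copies the split of reads between them is uncertain. Their low FPKM therefore does not show that the transcripts were absent. *Fos*, *Egr1* and *Ier2* had high FPKM and *Hspa1a* and *Hspa1b* low FPKM in both populations, and the cause of either level was not tested. These genes were named after their values were seen.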
